A study of Homo sapiens with 12 samples.

Results

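The genes described are GOLGA8A and GOLGA8B on chromosome 15, and SMG1 with its pseudogenes SMG1P3 and SMG1P5 on chromosome 16, 5 of the 60617 genes in the table. GOLGA8A, GOLGA8B, SMG1P3 and SMG1P5 were chosen on their rise with WJ460, and SMG1 was taken as the parent gene of the pseudogenes. The values that chose them, WJ460 minus DMSO, are therefore given as a description with no test. The remaining GOLGA8 copies (21 identifiers in the table with GOLGA8A and GOLGA8B included) and SMG1 pseudogenes (7 in the table) are given beside them.

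Sequencing covered 12 RNA libraries in 4 groups of 3, all made from PANC-1, an established human pancreatic ductal adenocarcinoma line. Cells of the siGL3 group received a control siRNA against firefly luciferase, and cells of the siMYOF group an siRNA against MYOF, the gene of the membrane protein myoferlin. Cells of the DMSO group received the solvent, and cells of the WJ460 group 50 nM of WJ460, a small molecule used in the study as a myoferlin inhibitor. All libraries carried the label 48 h, which for the siRNA groups was counted from a wash after transfection, and no group carried a change beyond the siRNA or agent named. By the labels, 2 libraries (siGL3 replicate 1 and siMYOF replicate 1) carry an earlier batch date and the remaining 10 a later one, called the early and late batch here. The labels do not say which step the date marks. Whether separate cultures stand behind the DMSO and WJ460 replicates is not given in the sources used here, and p-values then reflect library-to-library spread that could be purely technical. Values are relative to all RNA of a culture, so fewer cells with a transcript and less of it per cell cannot be told apart.

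Golgins are long coiled-coil proteins that tether vesicles and hold the Golgi stack together. The GOLGA8 genes are primate-expanded relatives of GOLGA2, which encodes the Golgi matrix protein GM130, and lie in segmental duplications of chromosome 15. SMG1 is a kinase of the PI3K-related family that phosphorylates UPF1, a step of nonsense-mediated mRNA decay (NMD), the pathway that removes transcripts with premature stop codons. Its pseudogenes are partial duplicates spread over chromosome 16 together with genes of the NPIP family, and they carry only the part of SMG1 that encodes the N-terminal portion of the kinase.

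The sequences below show how alike the copies are, since that sets how surely a read can be given to one of them. All came from the GENCODE v44 transcripts on GRCh38 and are printed 5′ to 3′ on the transcript strand, with capitals at the positions where the copies shown differ. In GOLGA8A and GOLGA8B, the 1809 coding bases of the main annotated transcripts differed at 1 base, which is in the stretch shown, in exon 25 of GOLGA8A (chr15:34381474-34381563, minus strand) and exon 24 of GOLGA8B (chr15:34527695-34527784, minus strand).
GOLGA8A: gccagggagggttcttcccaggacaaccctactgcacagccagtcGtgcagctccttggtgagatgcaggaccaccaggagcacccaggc
GOLGA8B: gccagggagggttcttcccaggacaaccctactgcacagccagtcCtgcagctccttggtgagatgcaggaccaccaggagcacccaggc

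The SMG1 stretch lies in coding exon 4 (chr16:18892258-18892347, minus strand). Its counterparts are in exon 4 of the non-coding transcripts of SMG1P3 (chr16:21479482-21479571, minus strand) and SMG1P5 (chr16:30301262-30301351, minus strand). It was shown because the 3 genes differ at 9 of its 90 positions, SMG1P3 from SMG1 at 6 of them and SMG1P5 from SMG1 at 5.
SMG1: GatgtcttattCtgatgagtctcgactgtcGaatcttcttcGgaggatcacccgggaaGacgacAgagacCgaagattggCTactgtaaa
SMG1P3: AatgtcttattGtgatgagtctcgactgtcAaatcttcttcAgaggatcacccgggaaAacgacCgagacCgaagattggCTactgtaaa
SMG1P5: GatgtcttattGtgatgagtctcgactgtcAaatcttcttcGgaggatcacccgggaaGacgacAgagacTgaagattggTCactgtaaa

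Every 150-base window of a gene's annotated transcripts was searched in the transcripts of all other genes in the table, as a guide to how often a read of that length names no single gene. In GOLGA8A 48.8% of the windows, and in GOLGA8B 47.3%, occurred in another gene, which for GOLGA8A was GOLGA8B in all cases. Within the coding part 93.7% of the windows were shared between the pair, against 27.2% of GOLGA8A and 27.6% of GOLGA8B windows elsewhere in the main transcripts. Of the SMG1 windows only 3.91% were shared with any gene, since most of its length has no copy. The pseudogenes had little sequence of their own. For SMG1P3, 89.9% of the windows were shared, 86.2% with SMG1P1, 46.5% with the NPIP gene NPIPB5 and 7.54% with SMG1. For SMG1P5, 84.5% were shared, 81.3% with SMG1P2 and 10.4% with SMG1. Aligned to SMG1, the SMG1P3 transcript was 96.7% identical over 4272 columns and that of SMG1P5 97.7% over 4235 columns. The values of GOLGA8A and GOLGA8B, and more so those of single SMG1 pseudogenes, are uncertain to this extent, while SMG1 itself rests mostly on its own sequence.

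**Figure D1:**
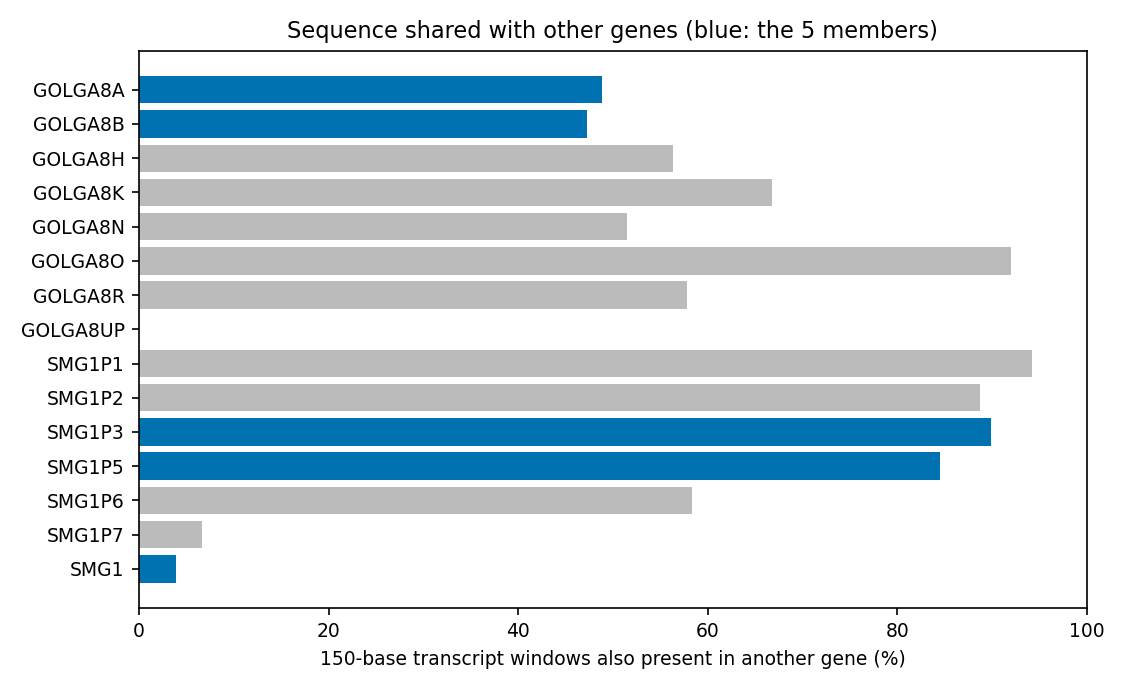
Bars give the percentage of 150-base transcript windows that also occur in another gene of the table, for the 15 family genes tested, with the 5 members in blue. SMG1 sits at 3.91%, GOLGA8A and GOLGA8B near the middle at 48.8% and 47.3%, and SMG1P3 at 89.9%.

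Both GOLGA8 members are on the minus strand of GRCh38 chromosome 15, GOLGA8A (ENSG00000175265) at 34378935 to 34437808 and GOLGA8B (ENSG00000215252) at 34525095 to 34588503, 87.3 kb apart. The microRNA genes MIR1233-1 and MIR1233-2 are annotated inside GOLGA8A and GOLGA8B, respectively. SMG1 (ENSG00000157106) is at 18804860 to 18926408 of chromosome 16, minus strand. SMG1P3 (ENSG00000180747, 21447078 to 21501886, minus strand) overlaps NPIPB3 on the same strand, and SMG1P5 (ENSG00000183604) is at 30267553 to 30335054, minus strand. Both pseudogenes are annotated as transcribed and unprocessed.

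The libraries held 12335147 to 19847210 reads, with the highest totals in the early batch. MYOF was at 15.4% of its siGL3 mean in the siMYOF libraries (log2 difference −2.71, SE 0.23, limma adjusted p = 2.4e-05). Of 8 ductal carcinoma markers 6 had a mean normalised count of at least 5, with a summed value from 11429 to 39239 per library, while KRT7 and MSLN fell under that mean. Of 7 fibroblast markers only PDGFRB reached 5, and COL1A2, DCN, FAP and LUM were at 0 in every library.

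Values below are normalised counts, reads divided by a size factor per library. GOLGA8A and GOLGA8B stood at a low, similar level with DMSO and about 7-fold higher with WJ460. The 3 DMSO libraries had 185, 220 and 161 for GOLGA8A, whereas the WJ460 libraries had 1234, 1463 and 1428. For GOLGA8B the DMSO values were 189, 224 and 186, whereas those under WJ460 were 1306, 1531 and 1585. For both genes the WJ460 libraries lay above every library of the other groups. The means were 7.29-fold higher for GOLGA8A (189 ± 29.3 against 1375 ± 123, SD, n = 3) and 7.38-fold higher for GOLGA8B (200 ± 21.1 against 1474 ± 148). On the log2(value + 1) scale the differences were 2.87 and 2.88, which placed GOLGA8B at rank 10 and GOLGA8A at rank 11 of the 14720 genes with a mean of at least 5.

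SMG1P3 and SMG1P5 had the same pattern at a lower level. SMG1P3 had values of 51.2, 54.1 and 45.2 under DMSO, compared to 282, 399 and 361 under WJ460, 6.92-fold higher by the means. SMG1P5 had values of 26.6, 19.9 and 29.5 under DMSO, compared to 121, 225 and 159 under WJ460, 6.66-fold higher. Both had all WJ460 libraries above every other library, with log2 differences of 2.76 and 2.66 at ranks 20 and 25. The DMSO values of SMG1P5 came from 18 to 30 reads per library.

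SMG1 differed from its pseudogenes in this. It had values of 5220, 5081 and 5140 under DMSO, compared to 4651, 6080 and 4929 under WJ460. The WJ460 libraries lay on both sides of the DMSO libraries, and the log2 difference was 0.01 (SE 0.18), or −0.15 when libraries were scaled by total reads, at rank 7275. So in 4 of the 5 members the WJ460 and DMSO libraries did not overlap, all in the direction that chose them. How many of all genes were separated in this way was not counted. In the same contrast 27.3% of all genes tested were higher and 25.6% lower with WJ460 (limma, adjusted p under 0.05), and the median log2 difference over all genes was 0.00.

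**Figure D2:**
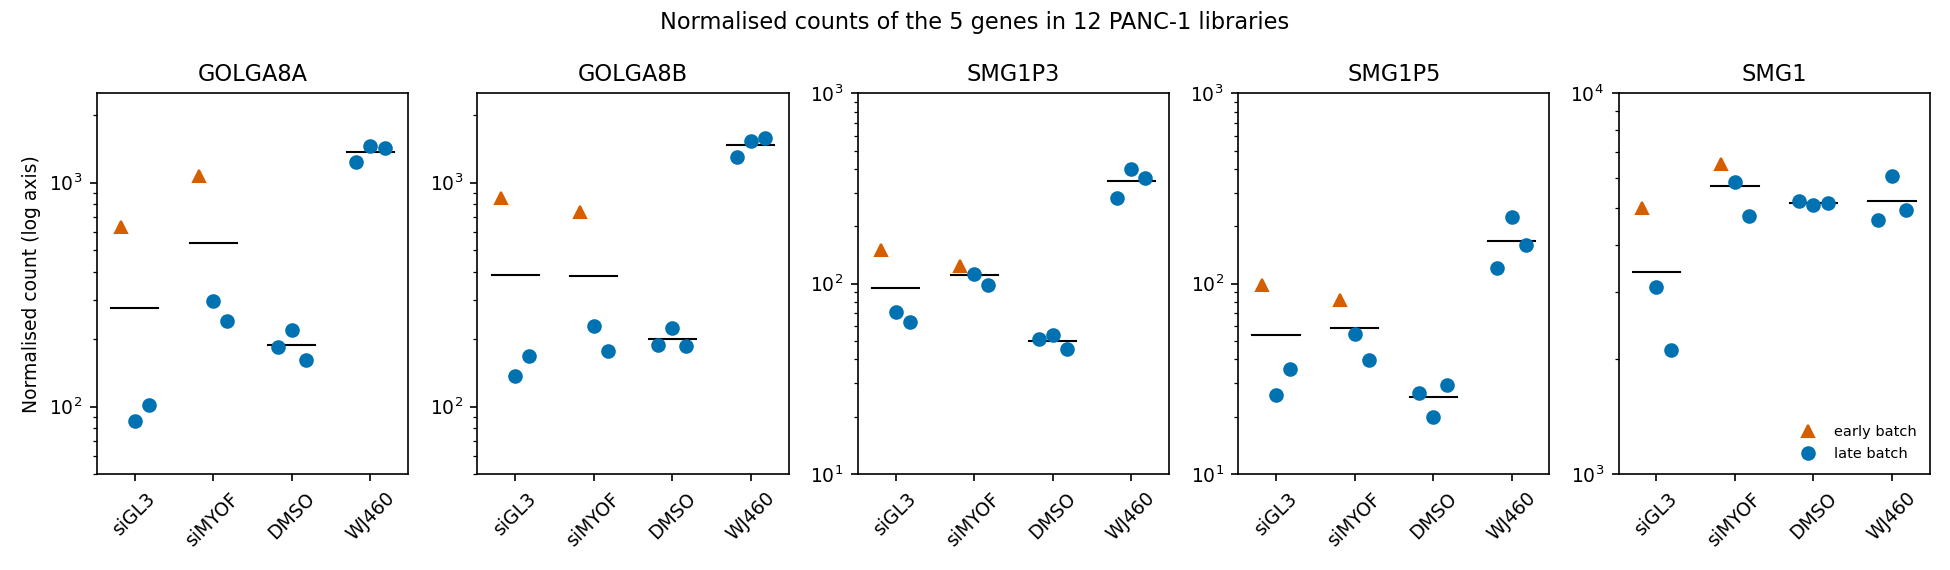
Normalised counts (log axis) of the 5 genes in each library of the 4 groups, with triangles for the early batch, circles for the late batch and a bar at the mean of each group. The WJ460 libraries are the highest for GOLGA8A, GOLGA8B, SMG1P3 and SMG1P5 but not for SMG1, and the early siRNA libraries stand above the late ones.

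Set per kilobase of annotated exon, so that genes of unequal length can be compared, the order of the 5 genes was nearly the same with DMSO and WJ460 but the distances shrank. With DMSO, SMG1 had a mean level of 205 normalised counts per kilobase, GOLGA8A 25.8, GOLGA8B 25.7, SMG1P3 11.8 and SMG1P5 6.0. With WJ460, SMG1 had 207, GOLGA8B 189, GOLGA8A 188, SMG1P3 81.5 and SMG1P5 40.0. The WJ460 libraries of SMG1 (185 to 242 per kilobase) and GOLGA8B (168 to 204) overlapped by this length, as did those of GOLGA8A and GOLGA8B in both groups. The length was that of the merged exons of all annotated transcripts, 25161 bases for SMG1 and 7782 for GOLGA8B. Their main transcripts have 16062 and 5607 bases. The overlap of SMG1 and GOLGA8B depends on this choice of length, so it does not show that their levels were equal. SMG1P3 stayed below both GOLGA8 genes and above SMG1P5 in every library of both groups.

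The knockdown was the contrast that the choice of members did not use. In it GOLGA8A and SMG1 rose, while the test did not pass for GOLGA8B, SMG1P3 and SMG1P5. The count was 2 of 5 members higher and 0 lower (limma, adjusted p under 0.05), beside 28% of all genes tested higher and 25.9% lower, so the share of members was not far from the background. The median log2 difference was 0.34 over the members and 0.01 over all genes.

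Under siGL3, GOLGA8A had 635 in the early library, then 85.8 and 101 in the late ones. Under siMYOF the same order gave 1073, 296 and 241. Within each batch every siMYOF library was above every siGL3 library. The late siGL3 libraries were the lowest of all for GOLGA8A, with the DMSO mean of 189 at 2.02-fold their mean. The late siMYOF mean was 268. The log2 difference was 1.26 (SE 0.15, limma adjusted p = 2.36e-06), 0.75 within the early and 1.51 within the late batch. Without the batch term, when the gap between early and late libraries enters the spread, the same difference of 1.26 lost its call (adjusted p = 0.211).

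GOLGA8B, the near-identical partner, had values of 854, 137 and 168 under siGL3, compared to 736, 229 and 178 under siMYOF. The early siMYOF library was lower than its siGL3 counterpart (log2 difference −0.21), and both late siMYOF libraries were higher than the late siGL3 libraries (0.41). Over all libraries the difference was 0.20 (SE 0.14, limma adjusted p = 0.223), and in a fit on the late libraries alone 0.41 passed (adjusted p = 0.0269).

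SMG1 had values of 4995, 3097 and 2117 under siGL3, compared to 6518, 5858 and 4772 under siMYOF. Within each batch the siMYOF libraries were higher, and the log2 difference was 0.83 (SE 0.18, limma adjusted p = 0.00359), 0.38 within the early and 1.05 within the late batch. The late siGL3 libraries were the lowest of all for SMG1, with the DMSO mean at 1.97-fold their mean. The late siMYOF mean was 5315, beside means of 5147 with DMSO and 5220 with WJ460. The SMG1 difference is thus one from low control siRNA libraries, and not a level above the DMSO and WJ460 groups.

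SMG1P3 had values of 151, 71.1 and 62.7 under siGL3, compared to 124, 113 and 98.7 under siMYOF. SMG1P5 had values of 98.8, 26.0 and 35.6 under siGL3, compared to 81.9, 54.6 and 39.9 under siMYOF. For both pseudogenes the early siMYOF library was below the early siGL3 library and the late ones above. The log2 differences were 0.34 for SMG1P3 (SE 0.18, limma adjusted p = 0.117) and 0.31 for SMG1P5 (SE 0.25, adjusted p = 0.303). In the late libraries alone they were 0.65 (adjusted p = 0.00761) and 0.60 (adjusted p = 0.0972), so that 4 of the 5 members passed there, beside 25.1% of all genes higher.

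The early libraries were set apart for the same genes. In the siRNA groups all 5 members were higher in the early than in the late batch (limma, adjusted p under 0.05), beside 21.2% of all genes higher and 23.8% lower. This count was made after the values had been seen. The batch differences were 2.38 on the log2 scale for GOLGA8A (SE 0.16, adjusted p = 5.65e-09) and 2.18 for GOLGA8B (SE 0.14, adjusted p = 3.14e-09). They were 0.70 for SMG1P3 (adjusted p = 0.00597), 1.23 for SMG1P5 (adjusted p = 9.2e-04) and 0.63 for SMG1 (adjusted p = 0.0235). Within siGL3 the early library was 6.80-fold above the late mean for GOLGA8A and 5.61-fold for GOLGA8B. Within siMYOF the gap was narrower, at 3.997-fold for GOLGA8A and 3.62-fold for GOLGA8B. The gap between WJ460 and DMSO, 7.29-fold and 7.38-fold by the means, was wider than that in either siRNA group. Each siRNA group had 1 early library. The early libraries had a read in 23060 (siGL3) and 22706 (siMYOF) genes, against 19144 to 19754 genes in the late libraries. What differed in how the batches were made is not given in the sources used here.

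**Figure D3:**
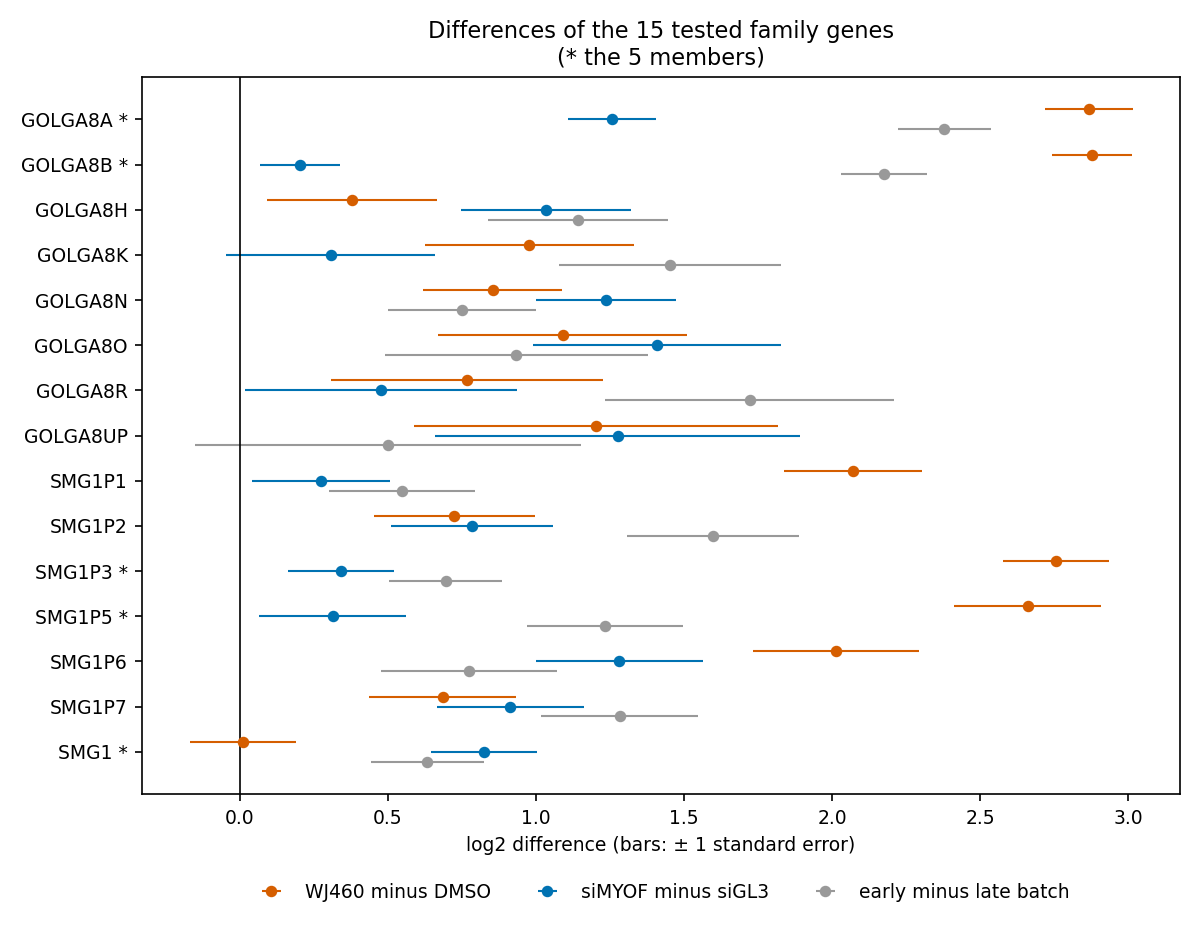
Points give log2 differences with bars of 1 SE for WJ460 minus DMSO (orange, the contrast that chose 4 of the members), siMYOF minus siGL3 (blue) and early minus late batch (grey), for the 15 tested family genes. GOLGA8A, GOLGA8B, SMG1P3 and SMG1P5 lie at 2.66 to 2.88 in the first contrast, and SMG1 lies at 0.01 (−0.15 when scaled by total reads).

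GOLGA8A and GOLGA8B were split unequally in the siRNA groups. The share of GOLGA8A in the reads of the pair, noticed after the values had been seen, was 42.7%, 38.6% and 37.6% under siGL3, compared to 59.3%, 56.4% and 57.6% under siMYOF. The groups did not overlap in either batch, and no Wilson 95% interval of one group reached one of the other. The lowest interval with siMYOF began at 51.8% and the highest with siGL3 ended at 45.5%. The means were 57.8% ± 1.46 against 39.6% ± 2.67 (SD, n = 3), and the exact two-sided permutation test gave p = 0.1, the smallest it can give with 3 against 3 (0.2 adjusted over the 4 ratios tested). Intervals cover counting error only, and not the uncertainty in assigning shared reads.

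With DMSO the share was 49.5%, 49.5% and 46.5%, and with WJ460 48.6%, 48.9% and 47.4%. The 2 groups overlapped, with means of 48.5% and 48.3%. The pair thus moved in step with WJ460, whereas with siMYOF GOLGA8A carried the larger part of the reads.

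**Figure D4:**
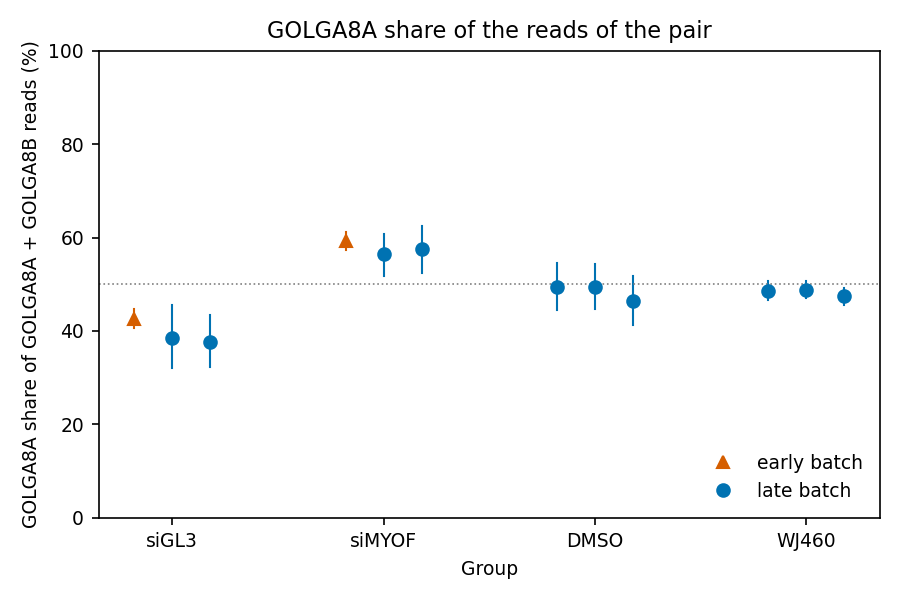
The vertical axis is the percentage of GOLGA8A among the recovered reads of GOLGA8A and GOLGA8B in each library, with Wilson 95% intervals for counting error. All siMYOF libraries lie above 50% and all siGL3 libraries below it, while DMSO and WJ460 overlap between 46.5% and 49.5%.

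The balance between SMG1 and its pseudogenes was followed as a share. Reads of all 7 pseudogenes were summed for it, so that the split between them did not matter. The sum stays uncertain where windows are shared with SMG1 or with genes outside the family, such as NPIPB5 (46.5% of SMG1P3 windows). The pseudogenes made up 3.58%, 3.60% and 2.94% of the SMG1 and pseudogene reads with DMSO and 12.3%, 13.5% and 13.4% with WJ460. In the siGL3 libraries the share was 7.81%, 5.19% and 7.33%, and in the siMYOF libraries 6.47%, 4.83% and 5.43%. The siRNA groups overlapped (6.78% ± 1.40 against 5.57% ± 0.83, SD, n = 3, exact two-sided permutation p = 0.3), and both lay above DMSO and below WJ460 in every library. For each 1000 reads of SMG1 there were 8.80 to 10.6 reads of SMG1P3 with DMSO and 60.6 to 73.3 with WJ460. With siMYOF this ratio was 19.0 to 20.7 and with siGL3 23.0 to 30.1, so that SMG1P3 was lower relative to SMG1 in every siMYOF library than in any siGL3 library (exact two-sided permutation p = 0.1, the smallest possible, 0.2 adjusted). For SMG1P5 the siMYOF ratios of 8.37 to 12.6 and the siGL3 ratios of 8.39 to 19.8 overlapped (exact permutation p = 0.3). No such ratio can pass 0.05 at this group size.

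**Figure D5:**
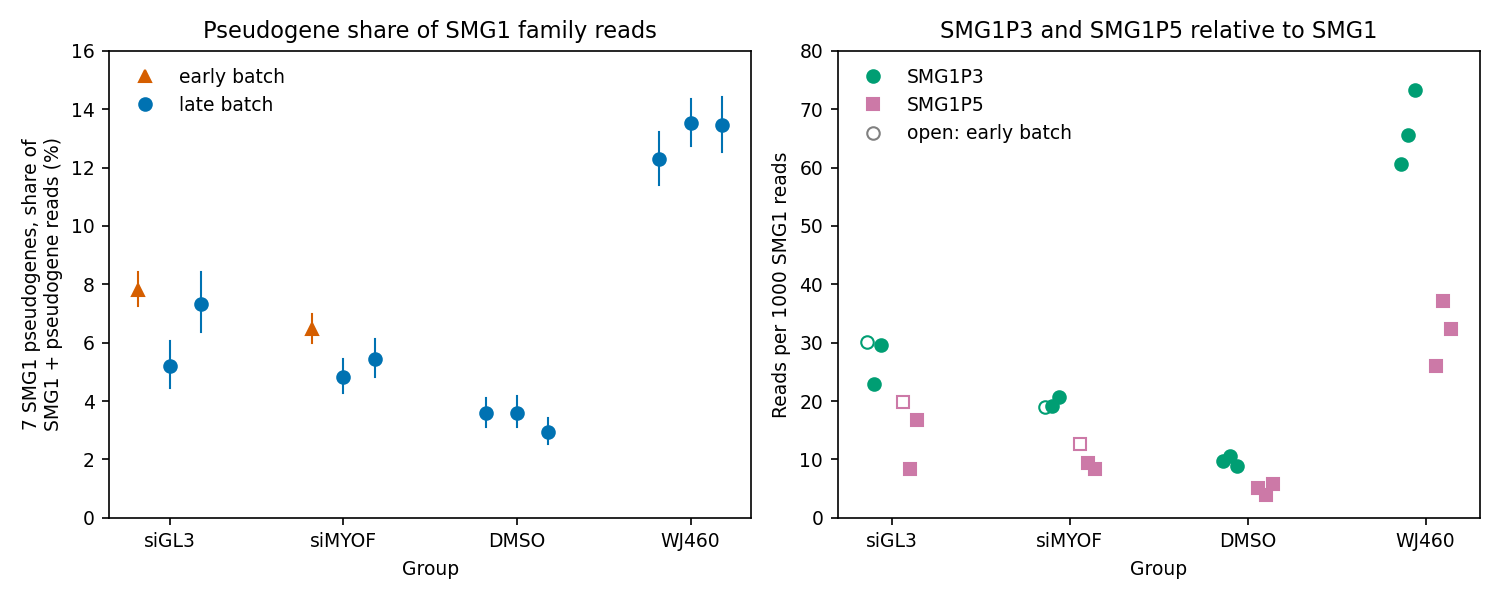
Left, the percentage of reads from the 7 SMG1 pseudogenes among all SMG1 family reads per library, with Wilson 95% intervals. Right, reads of SMG1P3 and SMG1P5 per 1000 SMG1 reads, with open symbols for the early batch. WJ460 is highest (12.3% to 13.5%) and DMSO lowest (2.94% to 3.60%) in the left plot.

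The other copies were not a uniform group. Of the remaining SMG1 pseudogenes 4 were tested, and SMG1P4 had a mean below 5. All 4 had every WJ460 library above every DMSO library, but to unequal extents. The share of all genes separated in this way was not counted. By a different measure, the limma call (adjusted p under 0.05), 27.3% of all genes tested were higher with WJ460. Of their windows, SMG1P1 shares 87.1% with SMG1P3 and SMG1P2 81.3% with SMG1P5, members chosen on this contrast. The values of SMG1P1 and SMG1P2 are therefore not independent of that choice. SMG1P1, which shares most of its sequence with SMG1P3, had values of 29.5, 32.0 and 17.7 under DMSO, compared to 102, 125 and 107 under WJ460, 4.21-fold higher. SMG1P6 was 4.28-fold higher by the means, SMG1P2 1.76-fold and SMG1P7 1.57-fold. SMG1P2, the closest relative of SMG1P5 by shared windows, thus had a smaller difference than SMG1P5, at 34.5, 32.0 and 33.4 with DMSO against 47.2, 85.6 and 42.7 with WJ460.

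Among the 6 other GOLGA8 copies tested, the highest group mean was 69.2 and the log2 differences with WJ460 ran from 0.38 for GOLGA8H to 1.20 for GOLGA8UP. Of these 6, 2 had every WJ460 library above every DMSO library, a count that again has no share over all genes beside it. GOLGA8N, the largest of them, had values of 39.4, 26.5 and 27.5 under DMSO, compared to 40.7, 55.3 and 78.6 under WJ460. GOLGA8A and GOLGA8B, which lie 87.3 kb apart, had differences of 2.87 and 2.88. The other 13 GOLGA8 identifiers had a mean below 5, with a highest value of 8.06 in any library.

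With siMYOF 6 of the 10 tested copies that are no members rose and 0 fell (limma, adjusted p under 0.05), beside 28% of all genes higher and 25.9% lower. In the late libraries alone 7 rose, beside 25.1% of all genes. The 6 were the GOLGA8 copies N (log2 difference 1.24, adjusted p = 2.1e-04), H (1.03, 0.0051) and O (1.41, 0.0081), and the pseudogenes SMG1P6 (1.28, 7.7e-04), SMG1P7 (0.91, 0.0044) and SMG1P2 (0.79, 0.021). GOLGA8UP, GOLGA8K, GOLGA8R and SMG1P1 had positive values that did not pass. GOLGA8O had values of 12.8, 2.26 and 4.68 under siGL3, compared to 17.4, 20.5 and 11.1 under siMYOF, so these calls rest on few reads. Nor are the calls independent of one another, since copies share sequence. GOLGA8O shares 56.5% of its windows with GOLGA8N, and SMG1P6 shares 47.1% with SMG1P2.

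The genes beside the members had differences in both directions. Of 27 tested neighbours and overlapping genes outside the 2 families, 10 rose and 9 fell with WJ460, with a median log2 difference of 0.05, and 10 rose and 5 fell with siMYOF, with a median of 0.18 (limma, adjusted p under 0.05). Over all genes 27.3% rose and 25.6% fell with WJ460, and 28% rose and 25.9% fell with siMYOF. LPCAT4, 11.7 kb from GOLGA8A, differed by −0.78 with WJ460. AQR, the nearest tested gene on the other side of GOLGA8B, differed by −0.42. Next to SMG1, ARL6IP1 differed by −1.14 with WJ460 and RPS15A by 0.50. METTL9 beside SMG1P3 had 0.49 and CD2BP2 beside SMG1P5 0.28. NPIPB3, whose gene overlaps that of SMG1P3 on the same strand and holds 5.76% of its windows, had values of 21.7, 23.2 and 20.7 under DMSO, compared to 51.4, 42.8 and 99.9 under WJ460.

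The NMD pathway, to which SMG1 belongs, was described by a list of 26 other factors. With WJ460 13 rose and 5 fell, and with siMYOF 11 rose and 9 fell, with median log2 differences of 0.14 and 0.11. Over all genes 27.3% rose and 25.6% fell with WJ460, and 28% rose and 25.9% fell with siMYOF. MAGOH, a subunit of the exon junction complex, rose by 0.99 with WJ460, and SMG5, an adaptor that binds phosphorylated UPF1, rose by 0.65. UPF3B, which links the exon junction complex to UPF2, rose by 1.10 with siMYOF and by 0.67 with WJ460. The decapping enzyme DCP2 rose by 1.15 with siMYOF and fell by 0.32 with WJ460, and the ATPase RUVBL1 fell by 0.73 with siMYOF. All of these passed (limma, adjusted p of 0.00495 or less).

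Of 22 genes with transcripts known to be degraded by NMD, 14 rose and 0 fell with WJ460, with a median of 0.61. Over all genes 27.3% were higher and 25.6% lower. With siMYOF 14 rose and 1 fell, with a median of 0.44, beside 28% and 25.9%. GADD45A, a stress-response gene, rose by 2.14 with WJ460 and 0.62 with siMYOF. ATF4, a transcription factor induced under cellular stress, rose by 0.68 and 1.73, and GAS5, a snoRNA host, by 0.85 with WJ460 but was at −0.08 with siMYOF (adjusted p = 0.424). Genes of the list such as ATF4 and DDIT3 also respond to stress. Values are per gene, so for genes such as SRSF2 and TRA2B the degraded transcript is not told apart from others. The list is therefore not a measure of NMD alone. In the early batch 14 of these genes were higher and 3 lower, beside 21.2% and 23.8% of all genes.

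The 8 genes of the PI3K-related kinases and of the TTT complex, a chaperone of these kinases, had 2 higher and 3 lower with WJ460, and 1 higher and 5 lower with siMYOF. TTI1, a TTT subunit, differed by −1.11 with siMYOF (adjusted p = 3.8e-08) and by −0.03 with WJ460. SMG1 rose in the contrast in which MTOR had −0.43 and TTI1 fell. Of 20 golgins and Golgi matrix proteins 9 rose and 3 fell with WJ460, and 10 rose and 5 fell with siMYOF, with medians of 0.12 and 0.20. The shares over all genes were those given for the NMD factors. GOLGA4, a golgin of the trans-Golgi, rose by 0.46 with WJ460 and 0.79 with siMYOF, and BLZF1, which binds the stacking protein GORASP2, rose by 0.86 with WJ460. With siMYOF the golgin GOLGA3 fell by 0.68 (adjusted p = 1.45e-07), GOLGA7 fell by 0.74 (adjusted p = 6.4e-06) and the vesicle tether USO1 fell by 0.55 (adjusted p = 5.97e-07).

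Of 24 transcripts known to be kept in the nucleus or to retain introns, 20 rose and 2 fell with WJ460, with a median of 0.61, beside 27.3% of all genes higher and 25.6% lower. With siMYOF 14 rose and 5 fell, with a median of 0.35, beside 28% and 25.9%. In the early batch 22 were higher and 0 lower, with a median of 1.00, beside 21.2% and 23.8%. NEAT1, the paraspeckle RNA, rose by 2.23 with WJ460 and differed by −0.71 with siMYOF. MALAT1, a nuclear speckle RNA, rose by 1.91 and differed by −0.31. CLK1, a kinase of splicing factors whose own transcript retains introns, rose by 1.19 with WJ460 and 1.08 with siMYOF. With siMYOF NEAT1 and MALAT1 thus differed in direction from the 14 transcripts of the list that rose. With WJ460 and in the early batch most of the list was higher, as GOLGA8A and GOLGA8B were. With siMYOF 14 of the 24 were higher, as GOLGA8A was. The part of the list in the values of the 2 genes was not tested.

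Likeness to the mean of the 4 chosen paralogs over the 12 libraries was ranked by Pearson r of log2 values. Only genes outside the families with a mean of at least 50 and a regular symbol, not a clone-type or LINC name, were ranked. All 12 points share the batch and group structure, and the first 10 genes had r from 0.976 to 0.991. They were LTV1, NUS1, UBXN4, CCDC150, CEP85, ORMDL1, ACOT9, RABGGTB, CLASRP and NPIPB4. Pearson r does not depend on the size of a difference, and all of them had smaller WJ460 differences than the paralogs, such as 0.48 for NUS1. CCDC150 came closest in size. It had values of 80.7, 96.0 and 67.9 under DMSO, compared to 406, 588 and 503 under WJ460, a log2 difference of 2.60, with 0.31 for siMYOF and 1.12 for the early batch. Among the members themselves r was 0.965 between GOLGA8A and GOLGA8B, 0.962 between SMG1P3 and SMG1P5, and 0.889 to 0.940 between the pairs. SMG1 had r from 0.327 with SMG1P3 to 0.610 with GOLGA8A.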

How the data were processed

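RNA of 12 PANC-1 libraries was prepared by the authors with a stranded mRNA kit. According to their methods and processing notes, reads were aligned to GRCh38 with STAR and quantified per gene with Salmon, which divides reads that match several transcripts between them. The deposited signal values were normalised counts, scaled by the authors with a size factor for each library. Once the scaling was undone, 100% of them came out as whole numbers (tolerance 0.001 reads). These are called reads here, but they can include reads that Salmon divided between copies. Whether the quantification used strand is not given in the sources used here.

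Differences were tested with limma 3.58.1 (log2(value + 1), trended and robust variance) over 14720 genes whose mean reached 5. Group and batch were the terms of 1 fit to the 12 libraries, and p-values were adjusted by Benjamini-Hochberg over all genes tested, passing under 0.05. Differences are on this scale and understate changes of low genes. On the recovered reads edgeR 4.0.16 called 8123 genes for siMYOF and 7820 for WJ460. DESeq2 1.42.0, other scalings, filters and pseudocounts, and fits without single libraries were alternatives. The fit was tested on simulated data. Same-numbered libraries were not treated as pairs, since after the batch term their deviations correlated at −0.043 and −0.013 in the late siRNA libraries and at −0.002 to 0.026 for DMSO and WJ460.

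Coordinates and sequences came from GENCODE v44, which 60261 of 60617 identifiers matched and which is newer than the annotation of the files. Alignments used BLAST 2.17.0, and permutation tests and intervals scipy 1.17.1. The members and lists were chosen with earlier results of these data known. Named genes were the members, every other copy of both families, the 3 tested genes nearest each side of a member, up to 4 genes of each list by smallest p per contrast, the 10 most alike genes and MYOF, with some not reported here. Other genes named were chosen after their values were seen.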

Additional observations from a re-analysis of the deposited data

Results flagged for a closer look

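For 3 members the siMYOF libraries lay below the siGL3 library in the early batch, while in the late batch every siMYOF library lay above every siGL3 library. The early pair differed by −0.21 on the log2 scale for GOLGA8B, by −0.28 for SMG1P3 and by −0.27 for SMG1P5, against 0.41, 0.65 and 0.60 in the late libraries. The difference between these effects was −0.62 for GOLGA8B (limma adjusted p = 0.409), −0.93 for SMG1P3 (adjusted p = 0.312) and −0.87 for SMG1P5 (adjusted p = 0.627), so it did not pass. The early batch holds 1 library per siRNA group.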

How the results depend on the processing

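Of the knockdown values, GOLGA8A passed in 23 of 24 alternatives (adjusted p from 9.44e-14 to 0.211) and SMG1 in all 24 (1.52e-04 to 0.0181). GOLGA8A lost its call without the batch term (1.26, adjusted p = 0.211), where the early libraries enter the spread. On the late libraries alone GOLGA8B (0.41) and SMG1P3 (0.65) passed. With all copies of a family summed, the GOLGA8 sum had 0.78 and the pseudogene sum 0.53, both past the threshold, which replaced the values of GOLGA8B, SMG1P3 and SMG1P5.

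Summed copies gave 2.61 for GOLGA8, 2.12 for the pseudogenes and 0.16 for SMG1 with its pseudogenes with WJ460. Scaling by total reads gave 2.72 for GOLGA8B and −0.15 for SMG1 with WJ460. That scaling took the median of all genes from 0.011 to −0.097 (siMYOF) and from 0.00 to −0.155 (WJ460), and the split of calls from 4126 higher and 3806 lower to 3190 and 4766 for siMYOF, and from 4017 and 3767 to 2637 and 5206 for WJ460. Without the batch term 5140 genes passed for WJ460, against 7784.

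Leaving out 1 library at a time gave siMYOF differences of 1.10 to 1.51 for GOLGA8A, 0.04 to 0.41 for GOLGA8B, 0.61 to 1.05 for SMG1, 0.20 to 0.65 for SMG1P3 and 0.10 to 0.60 for SMG1P5. GOLGA8B and SMG1P3 passed without either early library, at 0.41 and 0.65. The WJ460 differences were 2.76 to 2.98, 2.82 to 2.96, −0.10 to 0.09, 2.65 to 2.90 and 2.43 to 2.87 in the same order of genes. The genes past the threshold numbered 6928 to 8235 for siMYOF and 6796 to 8009 for WJ460.

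With the replicate number as a block beside the batch, 8185 genes passed for siMYOF, and the block changed no call of a member (GOLGA8A 1.26, adjusted p = 5.9e-06). Before the batch term, same-numbered siRNA libraries deviated together (r 0.53 to 0.818). Low counts limit single copies: SMG1P5 had 18 reads in 1 DMSO library.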

Other observations

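Genes of the NPIP family were duplicated along chromosome 16 with the SMG1 pseudogenes, and NPIPB3, NPIPB4 and NPIPB5 share windows with SMG1P3. Of 9 tested NPIP genes 8 were higher with WJ460 and 0 lower (limma, adjusted p under 0.05), with a median log2 difference of 1.54, beside 27.3% of all genes higher and 25.6% lower. With siMYOF 2 rose and 0 fell, with a median of 0.23, beside 28% and 25.9%. NPIPB5, which holds 46.5% of the SMG1P3 windows, had values of 67.9, 92.7 and 73.8 under DMSO, compared to 495, 375 and 312 under WJ460. NPIPB4 had values of 36.4, 32.0 and 37.4 under DMSO, compared to 185, 177 and 167 under WJ460. How many reads fell in the shared windows was not measured. The WJ460 calls of NPIPB3, NPIPB4 and NPIPB5 may thus not be independent of the rise that chose SMG1P3. The PKD1 pseudogenes, another duplicated group of chromosome 16, had 2 tested genes, PKD1P5 and PKD1P6, and both were higher with WJ460, by 1.68 and 1.32.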
